A study of Homo sapiens with 4 samples.

Results

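The genes described here are those whose symbol on the array marks them as nuclear-encoded parts of oxidative phosphorylation: symbols that start with NDUF, UQCR or ATP5, the series COX4 to COX8, and SDHA to SDHD. They were chosen by name alone, and 30 of the 14884 genes with a symbol in the platform annotation matched. The annotation used named no subunit of complex I and no subunit of complex II, so the set covers only 3 of the 5 complexes. It held 5 genes of complex III, 17 of complex IV and 3 of complex V, together with 2 assembly factors of complex I (NDUFAF7 and NDUFAF8) and 3 noncoding entries that share the letters of the names: NDUFA6-DT, a divergent transcript, NDUFB2-AS1, an antisense RNA, and UQCRBP1, a transcribed pseudogene. Subunits of complexes I and II were not analysed here.

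Total RNA came from HUT78, an established human T-cell line of cutaneous T-cell lymphoma. It was measured on 4 Affymetrix whole-transcript arrays: 2 of untreated cells and 2 of cells given the compound CSH71 at 250 nM for 30 h. The series presents CSH71 as a chemical aimed at the lipid-binding domain of p38γ, a mitogen-activated protein kinase, and asks which pathways lie downstream. All samples were of 1 cell line in serum-containing medium, and the labels name no vehicle for the controls. Nothing in the labels marks the replicates as independent cultures, so a p-value here reflects only scatter among these 4 arrays, possibly for technical reasons alone. The limma fit also borrows variance from all 14884 genes, with 4.9 prior degrees of freedom. Its standard errors (SE), intervals and p-values are therefore not a gene's own scatter. In bulk RNA, fewer cells of a type and less RNA per cell cannot be told apart. Values are linear intensities in arbitrary units, and log2 fold changes are CSH71 minus untreated on the log2(intensity + 16) scale, which understates the change of dim genes. Array medians lay between 71.5 and 81.1. Intensities of different probe sets cannot be set against each other, because each set of probes binds its target with its own strength. Of the 6 T-cell markers measured, 0 passed the limma test. The kinase gene LCK was at 1018 to 1157 over the 4 arrays, CD4 at 384 to 452, CD2 at 60.9 to 91.6 and CD28 at 65.0 to 107, all with overlapping groups. CD5 was higher on both treated arrays (1729 and 1802 untreated, 2100 and 1986 treated) and CD247, a chain of the T-cell receptor complex, lower on both (1415 and 1144 untreated, 1020 and 1044 treated), and the part of either in the results was not tested. Of the 4 measured markers of cutaneous lymphoma lines, 0 passed the limma test. CCR4 was lower on both treated arrays (4249 and 4396 untreated, 3501 and 3283 treated), as was TOX (2177 and 2334 untreated, 2174 and 2172 treated). PLS3 and TWIST1 were dim with overlapping groups, and the part of these genes in the results was not tested. Of the markers of other cell types, the 1 measured for B cells, the 4 for monocytes and the 4 for epithelium had overlapping groups, with EPCAM of epithelium at 1943 to 2169 on the 4 arrays. Both measured fibroblast genes were dim and higher on both treated arrays: DCN was at 23.1 and 19.2 untreated and 26.2 and 42.9 treated, and LUM at 41.0 and 41.6 untreated and 45.8 and 48.5 treated. Neither passed the limma test, and their part in the results below was not tested.

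Oxidative phosphorylation makes most of the ATP of resting cells. Electrons from NADH and succinate enter at complexes I and II, pass through ubiquinone to complex III (the cytochrome bc1 complex) and then through cytochrome c to complex IV (cytochrome c oxidase), which hands them to oxygen. The proton gradient built on the way drives complex V, the ATP synthase. The catalytic core of complex IV is encoded in mitochondrial DNA, while the subunits described here are encoded in the nucleus and surround that core. Several exist as a general isoform and as an isoform of particular tissues such as muscle, lung or testis. Activated T cells and T-cell lymphoma lines use both this pathway and glycolysis.

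No gene of the set passed the test between CSH71-treated and untreated cells, and the values leaned slightly to the negative side. Of the 30 genes, 26 had a negative log2 fold change, 4 a positive one, and the median was -0.09, against a median of -0.01 and 52.0% negative values over all genes. In limma's test, 0 of the 30 passed at an adjusted p under 0.05, where 0.047% of all genes did, and 0 had an unadjusted p under 0.05, where 5.1% of all genes did. Every adjusted p in the set was 0.999, and the smallest unadjusted limma p was 0.156. The fold changes ran from -0.37 (COX6B2) to 0.20 (UQCRH), and their standard errors from 0.16 to 0.29.

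All 30 of the 95% intervals included 0, and 29 of 30 lay within 1 unit of 0 on the log2(intensity + 16) scale. The testis isoform COX6B2 had an interval that reached -1.06. For dim genes such as COX6B2, COX7A1 and COX7B2, 1 unit on this scale is more than a 2-fold difference of the intensity itself. For 26 of the 30 genes the difference between the group means was smaller than the larger of the gaps between replicates of 1 group. The 4 in which it was larger were COX6A1, COX6B1, UQCRC1 and NDUFB2-AS1. The widest of these gaps was 0.89 on the log2 scale, again for COX6B2.

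**Figure D1:**
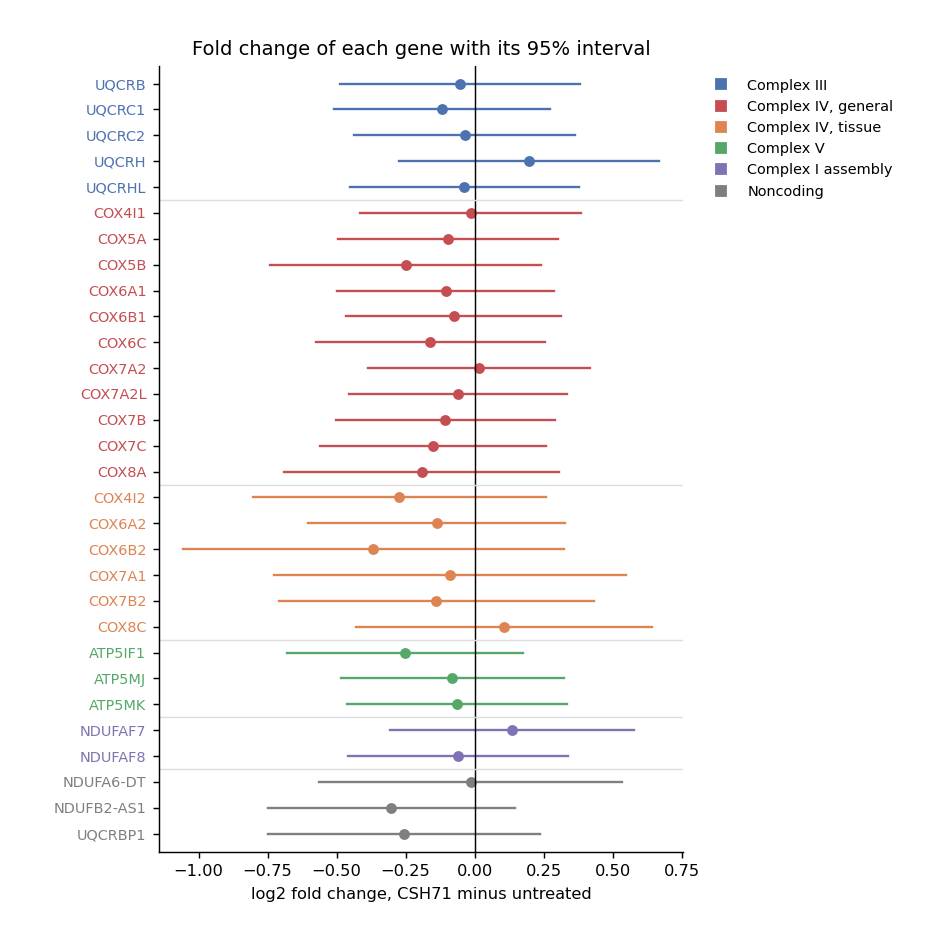
Each point is the log2 fold change of a gene, CSH71 minus untreated, and each bar its 95% interval from the limma fit over all genes (2 arrays per group). Every bar crosses 0, and 26 of the 30 points lie to the left of it. COX7A2L is drawn with the general isoforms of complex IV.

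For 9 of the 30 genes both treated arrays lay below both untreated arrays, and for 0 both lay above. Over all genes these shares were 16.6% below and 15% above, 31.6% in all. The 9 were COX5A, COX6A1, COX6B1, COX6C, COX7B and COX7C of complex IV, UQCRC1 of complex III, ATP5IF1 of complex V and the antisense RNA NDUFB2-AS1. The size of these separations was small, from -0.08 for COX6B1 to -0.30 for NDUFB2-AS1.

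**Figure D2:**
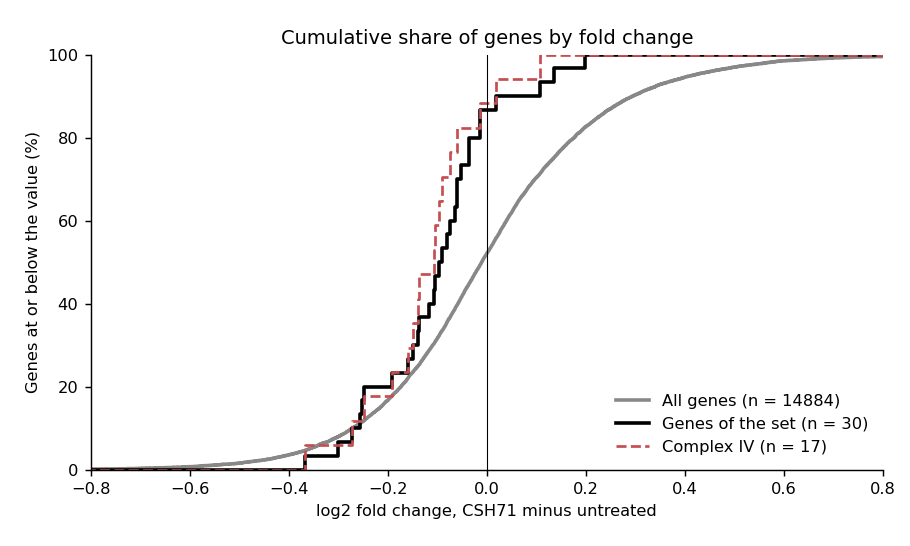
The curves give the percentage of genes at or below each log2 fold change (CSH71 minus untreated) for all 14884 genes, for the 30 genes of the set and for the 17 of complex IV. Above a fold change of -0.15 the curve of the set lies higher than that of all genes, and it reaches its middle at -0.09.

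The lean was also set against brightness, as the mean intensity over the 4 arrays. Over all genes, negative fold changes made up 45.2% of the 6063 under 100, 56.8% of the 5226 from 100 to 500, 55.8% of the 1805 from 500 to 1000 and 57.7% of the 1790 at 1000 or more. Within the set they were 5 of 6, 4 of 6, 5 of 6 and 12 of 12 in the same ranges, with medians of -0.14, -0.03, -0.11 and -0.09, so the dimmest range had the most negative median. Among the bright genes, 26.3% of all and 6 of the 12 of the set were lower on both treated arrays. The part of brightness in the lean of the set was not tested.

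The single arrays did not all carry the lean alike. The highest of the 4 values was on an untreated array for 24 of the 30 genes (11 on replicate 1 and 13 on replicate 2), where the untreated arrays held the highest value for 20.6% and 32.8% of all genes. The lowest value was on CSH71 replicate 1 for 12 genes and on CSH71 replicate 2 for 10, against 23.4% and 26.7% of all genes. Between replicates the genes of the set differed by a median of 0.12 on the log2 scale in untreated and 0.13 in treated cells, and between a treated and an untreated array by 0.10 to 0.13. The spread within a group was thus about as large as that across groups. Untreated replicate 1 and CSH71 replicate 2 were closest, at 0.10, then untreated replicate 2 and CSH71 replicate 1, at 0.11. Both lay closer than the replicates of either group. Over all genes these values were 0.17 and 0.18, against 0.22 between the untreated and 0.19 between the treated replicates.

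**Figure D3:**
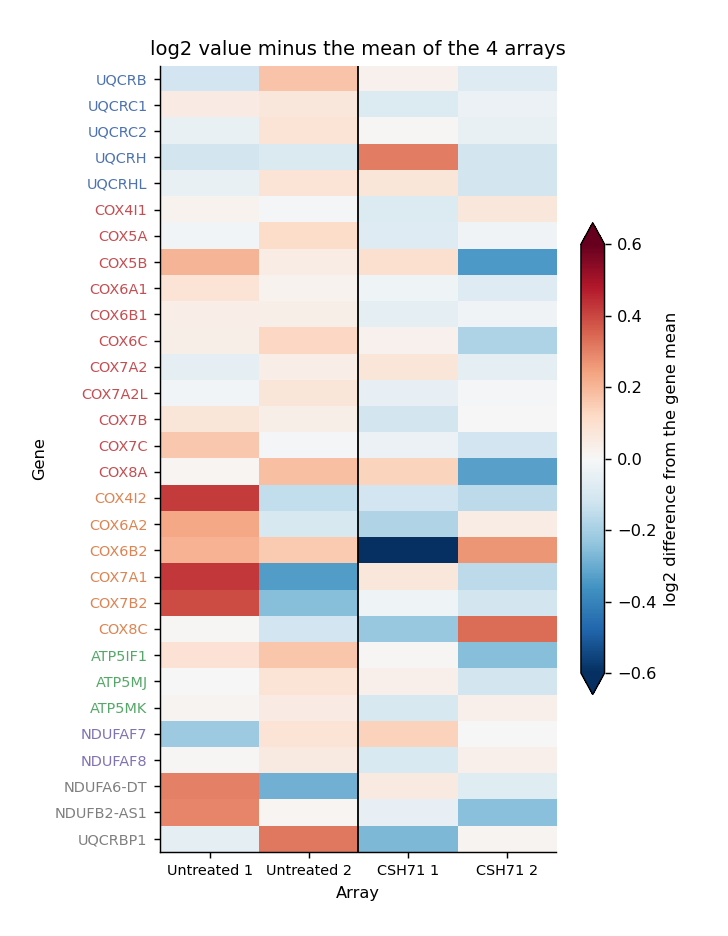
Colour gives each gene's log2(intensity + 16) on an array minus its mean over the 4 arrays, with untreated arrays left and CSH71-treated arrays right of the line. Red is above and blue below the mean. Red is mostly on the untreated side, and deep colours sit in single arrays, such as COX6B2 on CSH71 replicate 1 and COX4I2, COX7A1 and COX7B2 on untreated replicate 1.

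Complex IV supplied most of the genes, 17, of which 15 had a negative fold change and 2 a positive one, with a median of -0.11. Its genes are known targets of nuclear respiratory factor 1 (NRF1) and of the ETS factor GABP, so the upstream sequences of RefSeq (GRCh38.p14) were searched on both strands for GCGCATGC (NRF1) and CCGGAAGT (ETS). The 250 bases before the start are shown for the 5 protein-coding genes of the set that hold either motif there, to show where these letters stand in genes whose values follow. Capitals mark the motifs, 5′ to 3′ along the gene.

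COX5B (chr2:97645812-97646061, plus strand): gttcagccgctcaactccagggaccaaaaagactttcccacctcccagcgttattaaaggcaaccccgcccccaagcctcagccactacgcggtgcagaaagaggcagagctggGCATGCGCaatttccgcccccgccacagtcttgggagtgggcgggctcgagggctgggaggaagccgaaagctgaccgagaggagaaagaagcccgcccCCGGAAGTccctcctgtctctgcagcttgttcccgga
COX6A1 (chr12:120437863-120438112, plus strand): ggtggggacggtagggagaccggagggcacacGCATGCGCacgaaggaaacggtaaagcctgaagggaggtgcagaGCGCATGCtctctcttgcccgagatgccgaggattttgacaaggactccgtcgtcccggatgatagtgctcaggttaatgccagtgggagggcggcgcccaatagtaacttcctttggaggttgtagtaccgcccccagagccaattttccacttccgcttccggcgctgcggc
COX8A (chr11:63974370-63974619, plus strand): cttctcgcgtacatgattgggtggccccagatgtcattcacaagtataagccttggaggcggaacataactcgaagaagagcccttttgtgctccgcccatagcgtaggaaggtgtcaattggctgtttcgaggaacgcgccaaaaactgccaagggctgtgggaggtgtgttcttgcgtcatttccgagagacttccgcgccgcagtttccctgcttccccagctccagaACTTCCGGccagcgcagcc
ATP5MK (chr10:103396476-103396725, minus strand): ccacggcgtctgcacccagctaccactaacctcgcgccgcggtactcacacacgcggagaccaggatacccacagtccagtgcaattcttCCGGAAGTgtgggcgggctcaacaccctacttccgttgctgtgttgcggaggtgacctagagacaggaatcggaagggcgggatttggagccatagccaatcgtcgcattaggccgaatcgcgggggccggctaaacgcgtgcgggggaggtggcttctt
UQCRH (chr1:46303448-46303697, plus strand): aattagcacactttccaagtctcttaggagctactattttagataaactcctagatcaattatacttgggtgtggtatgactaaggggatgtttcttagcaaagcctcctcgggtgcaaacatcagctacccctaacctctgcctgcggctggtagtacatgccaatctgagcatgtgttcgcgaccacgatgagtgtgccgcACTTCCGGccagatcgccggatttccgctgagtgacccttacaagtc

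In these 5 windows COX5B holds both motifs, COX6A1 holds the NRF1 motif at 2 places, and COX8A, ATP5MK and UQCRH hold the ETS motif. A further ETS match in COX5B starts at position -5, counted back from the first transcribed base, runs across the start and is not in capitals. RefSeq promoters of 300 bases, from 250 before to 50 after the start, were found for 24 of the 30 genes, 28 promoters in all. The NRF1 letters stood in 3 of these 28 (10.7%), the third being NDUFA6-DT, against 3.05% of all 35116 promoters and 3.96% of those of genes measured on the arrays. The latter were 14884 promoters of 10749 genes, and measured genes without a promoter entry are not among them. The ETS letters stood in 4 (14.3%, against 4.14% of all and 5.62% of measured genes). Of the other motifs searched on both strands, AAGATGGC (YY1) stood in 4 promoters of 3 genes (14.3%, against 2.89% and 3.71%). Overlapping promoters of NDUFAF8 hold the same YY1 site, which was counted in each. GGGCGG (SP1) stood in 17 promoters of 15 genes (60.7%, against 45.0% and 58.1%) and AAGGTCA (ERR) in 3 (10.7%, against 3.92% and 3.10%). TGACGTCA (CRE) and TGAGTCA (AP-1) stood in 0 of the 28, against 1.85% and 4.95% of all promoters and 2.29% and 4.19% of those of measured genes. No match overlapped another. A match of letters is a description and does not show binding.

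The genes with those motifs had values on both sides of 0. COX5B, a zinc-binding subunit on the matrix side of complex IV, was at 958 and 857 on the untreated and 888 and 649 on the treated arrays. Its log2 fold change was -0.25 ± 0.21 (limma SE, n = 2 per group). The low value on CSH71 replicate 2 carried it, since CSH71 replicate 1 lay between the untreated arrays. Without CSH71 replicate 2 the value was -0.03, and without CSH71 replicate 1 it was -0.47. COX8A, a small membrane subunit, was at 2459 and 2767 untreated and 2678 and 1946 treated, a log2 fold change of -0.19 ± 0.21. Here too CSH71 replicate 1 lay within the untreated range and replicate 2 below it, and without replicate 2 the value turned to 0.04.

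COX6A1, a general isoform, was at 4633 and 4438 untreated and 4295 and 4141 treated (log2 fold change -0.10 ± 0.17). The groups did not overlap, and the 95% interval of the difference was -0.50 to 0.29. COX6A1 has 2 probe sets under its name, and their values went different ways. The other gave 14.9 and 29.8 untreated and 29.9 and 20.5 treated, a log2 fold change of 0.12. The 20 named probe sets nearest in number to the one used all belong to genes of chromosome 6, while COX6A1 lies on chromosome 12. For the other 31 of the 32 probe sets of the set, all 20 such neighbours lie on the gene's own chromosome. The nearest named neighbours were C6orf89 and PIM1, and RefSeq places the pseudogene COX6A1P2 between these 2 genes. Whether the signal came from COX6A1, from that copy or from both was not tested, and the COX6A1 value is uncertain for that reason.

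The other general isoforms of complex IV lay close together. COX4I1, the largest nuclear-encoded subunit and a site of regulation by ATP, was at 4017 and 3946 untreated and 3740 and 4153 treated. That is a log2 fold change of -0.01 ± 0.17 with a 95% interval of -0.42 to 0.39, and the treated arrays lay on either side of the untreated ones. Its sign turned to 0.01 after median centring. COX5A, which like COX5B lies on the matrix side, was at 3042 and 3328 untreated and 2919 and 3034 treated (log2 fold change -0.10 ± 0.17). The treated arrays were both lower, by less than the gap between the untreated ones.

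COX6B1, which faces the intermembrane space near the binding site of cytochrome c, had the tightest untreated pair, 1749 and 1745, and was at 1640 and 1675 treated. Its log2 fold change was -0.08 ± 0.16, so both treated arrays were lower by a small amount. COX7C, a single-pass membrane subunit, was at 1404 and 1244 untreated and 1224 and 1156 treated (-0.15 ± 0.17), and COX7B, another, at 1622 and 1583 untreated and 1430 and 1546 treated (-0.11 ± 0.17). COX6C was at 770 and 820 untreated and 764 and 659 treated (-0.16 ± 0.18). For COX6C the value of CSH71 replicate 1 lay just under the lower untreated array, so that CSH71 replicate 2 stood further apart. COX7A2, the general partner of the muscle isoform COX7A1, was the one general isoform with a positive value, at 929 and 991 untreated and 1015 and 929 treated (0.02 ± 0.17), and its groups overlapped. Of the 10 general isoforms, 9 were negative, with a median of -0.11, and 6 were lower on both treated arrays, against 16.6% of all genes and 26.3% of those at 1000 or more. Their 10 intervals all lay within 1 unit of 0. COX7A2L, a relative of COX7A2 that links complexes III and IV into supercomplexes, was at 1132 and 1205 untreated and 1104 and 1136 treated (-0.06 ± 0.17), with overlapping groups.

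The 6 tissue isoforms of complex IV had low intensities, from 21.2 to 163 over all arrays, and wide spreads. With no background level given, whether their RNA was present cannot be said, and in all 6 the groups overlapped. COX4I2, the lung isoform of COX4I1, was at 163 and 105 untreated and 107 and 104 treated (log2 fold change -0.27 ± 0.22), so that untreated replicate 1 alone stood apart, and without it the value was 0.01. COX6B2, a testis isoform, was at 64.4 and 61.6 untreated and 29.0 and 67.5 treated (-0.37 ± 0.29). The treated arrays bracketed the untreated ones, and without CSH71 replicate 1 the value was 0.08. COX7A1 of heart and muscle was at 49.9 and 22.9 untreated and 35.5 and 28.0 treated (-0.09 ± 0.27), and without untreated replicate 1 it was at 0.29. COX7B2 (-0.14 ± 0.24), COX6A2 (-0.14 ± 0.20) and COX8C (0.11 ± 0.23) changed sign in the same way when 1 array was left out. The 5 negative values among these 6 genes therefore rest on single arrays, and untreated replicate 1 was the highest of the 4 for COX4I2, COX6A2, COX7A1 and COX7B2.

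**Figure D4:**
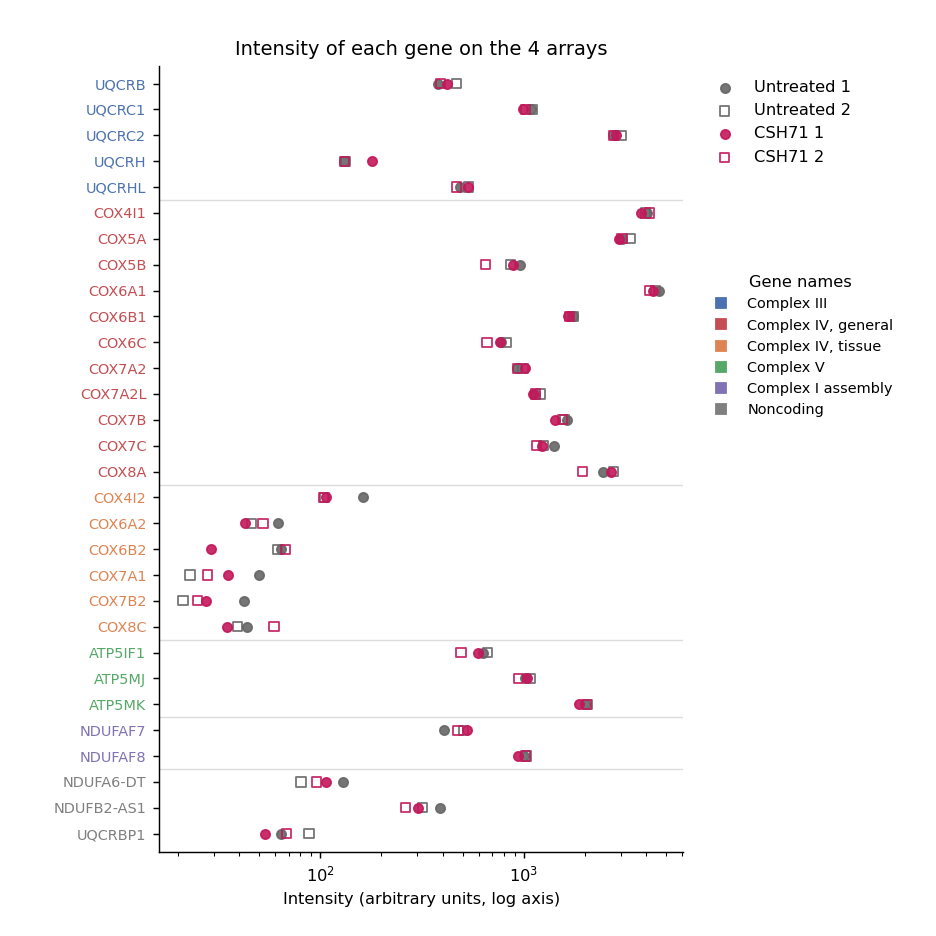
Each row gives a gene's intensity on the 4 arrays (log axis): filled circles are replicate 1 and open squares replicate 2, grey for untreated and magenta for CSH71. COX7A2L is drawn with the general isoforms of complex IV. For most genes of complexes III, IV and V the 4 marks nearly coincide, and the tissue isoforms, between 21.2 and 163, scatter most. Distances between rows compare different probes and carry no meaning.

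Complex III held 5 genes with a median of -0.04, 4 negative and 1 positive. UQCRC1, a core protein of the matrix arm, was at 1085 and 1099 untreated and 990 and 1021 treated (log2 fold change -0.12 ± 0.16, 95% interval -0.51 to 0.27), the only gene of the complex whose groups did not overlap. UQCRC2, the second core protein, was at 2745 and 3001 untreated and 2848 and 2749 treated (-0.04 ± 0.17), with both treated arrays inside the untreated range. UQCRB, which takes part in ubiquinone binding, was at 380 and 467 untreated and 421 and 391 treated (-0.05 ± 0.18), likewise inside it. The core proteins and UQCRB thus showed no separation beyond that of UQCRC1.

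UQCRH, the hinge protein that helps cytochrome c1 meet cytochrome c, had the highest fold change of the set, 0.20 ± 0.20, from 131 and 133 untreated to 180 and 131 treated. A single array gave that value, CSH71 replicate 1, the other treated array lay between the untreated ones, and without replicate 1 UQCRH was at -0.01. UQCRHL, a gene copied from UQCRH, was at 487 and 535 untreated and 531 and 465 treated (-0.04 ± 0.18). Copies this alike can share probes' targets, as can UQCRB and its pseudogene UQCRBP1, so these values are uncertain as to which copy they read. The median of complex III turned to 0.03 without untreated replicate 2.

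Complex V was represented by 3 genes, all negative, with a median of -0.08, which ran from -0.15 without CSH71 replicate 1 to -0.05 without untreated replicate 2. ATP5IF1 encodes the inhibitor that stops the ATP synthase from running backwards and splitting ATP. It was at 627 and 664 untreated and 592 and 492 treated, a log2 fold change of -0.25 ± 0.18 with an interval of -0.68 to 0.18 (limma unadjusted p = 0.206, adjusted p = 0.999). Both treated arrays were lower, and without CSH71 replicate 2 the value was -0.12. ATP5MJ, a small membrane subunit, was at 1017 and 1076 untreated and 1039 and 942 treated (-0.08 ± 0.17). ATP5MK, another, was at 2005 and 2054 untreated and 1857 and 2025 treated (-0.06 ± 0.17). For both of these subunits 1 treated array lay inside the untreated range.

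NDUFAF7, a methyltransferase needed to assemble complex I, was at 407 and 505 untreated and 526 and 475 treated (log2 fold change 0.14 ± 0.19). NDUFAF8, which works with another assembly factor of that complex, was at 999 and 1031 untreated and 932 and 1015 treated (-0.06 ± 0.17). The groups overlapped in both. Of the noncoding entries, NDUFB2-AS1 was at 388 and 317 untreated and 303 and 262 treated (-0.30 ± 0.19, limma adjusted p = 0.999). Both treated arrays were lower, and its unadjusted limma p of 0.156 was the smallest of the set. With 1 array left out its fold change ran from -0.44 to -0.16. UQCRBP1 was at -0.26 ± 0.21 and NDUFA6-DT at -0.01 ± 0.23, with overlapping groups.

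Other genes around the pathway gave a similar picture, from 16 lists that held 128 measured genes outside the set. Of these 128, 0 passed limma's test, 91 had a negative and 37 a positive fold change, and the median was -0.07. The 44 measured assembly factors of all 5 complexes that lie outside the set had a median of -0.10, with 34 negative and 10 positive values, and 12 of them were lower on both treated arrays while 0 were higher, against 16.6% and 15% of all genes. Among them UQCC6, which helps to build complex III, was at 229 and 251 untreated and 183 and 186 treated (log2 fold change -0.35 ± 0.17, limma adjusted p = 0.990), and UQCC5 at 322 and 363 untreated and 266 and 275 treated (-0.32 ± 0.17). Both treated arrays were lower for both of these genes, and their list of 7, with 6 negative values, had a median of -0.30, the lowest of the 16. SDHAF3, an assembly factor of complex II, was at -0.31 ± 0.17, and PET117, one of complex IV, at -0.41 ± 0.23. The medians were -0.02 for 10 assembly factors of complex I, -0.16 for 4 of complex II, -0.07 for 20 of complex IV and -0.21 for 3 of complex V. CYC1, cytochrome c1 of complex III, was at 1201 and 1502 untreated and 1315 and 1171 treated (-0.11 ± 0.19), with overlapping groups.

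**Figure D5:**
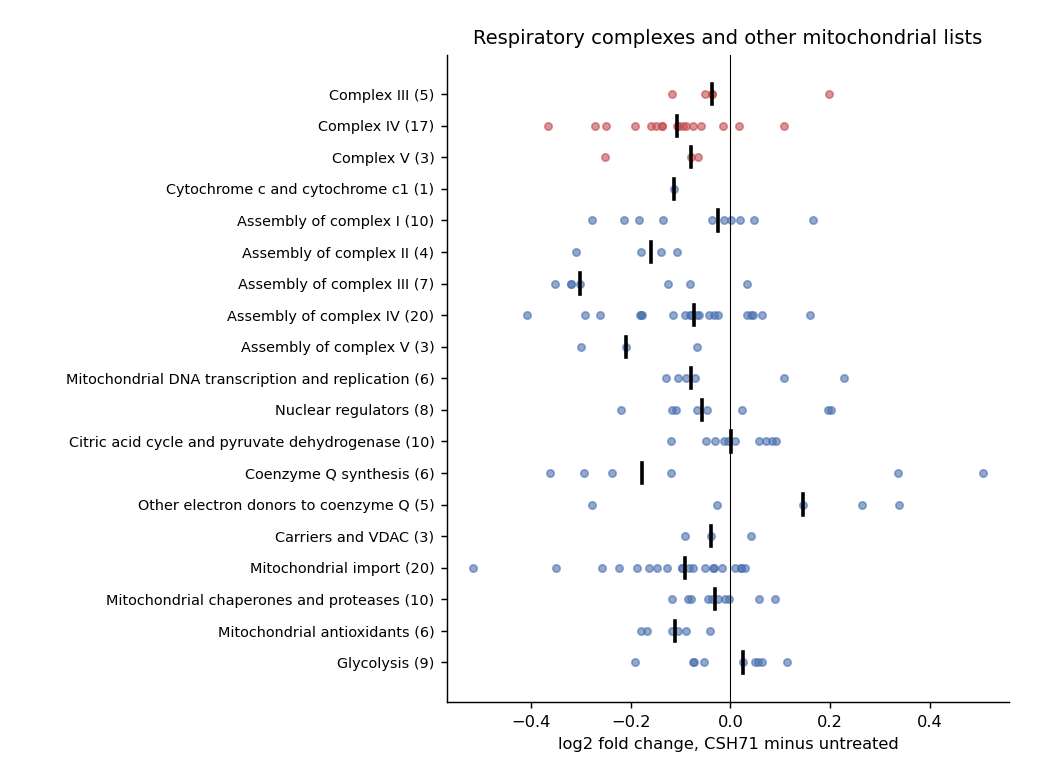
Points are log2 fold changes (CSH71 minus untreated) of single genes, red for the complexes of the set and blue for the other lists, and black bars are list medians, with the number of measured genes in brackets. The blue lists' medians lie between -0.30 and 0.03, except that of the other electron donors to coenzyme Q at 0.14, and no gene shown passed the limma test.

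Import of proteins into mitochondria had 20 measured genes, 16 negative and 4 positive, with a median of -0.09, and 11 were lower on both treated arrays, against 16.6% of all genes and 26.3% of those at 1000 or more. TIMM9, a chaperone of the intermembrane space, was at 388 and 479 untreated and 307 and 287 treated. Its log2 fold change of -0.52 ± 0.18 had an unadjusted limma p of 0.0262 (adjusted p = 0.928), and both treated arrays were lower. The other gene of the 128 with an unadjusted limma p under 0.05 was COQ10B, a coenzyme Q-binding protein, at 329 and 373 untreated and 487 and 524 treated (log2 fold change 0.51 ± 0.17, limma adjusted p = 0.928). It was higher on both treated arrays. GPD2, which feeds electrons of glycerol phosphate to coenzyme Q, was at 34.4 and 32.5 untreated and 46.1 and 46.8 treated (0.34 ± 0.16), higher on both treated arrays. The 6 measured genes of coenzyme Q synthesis had a median of -0.18, with COQ8B, a kinase-like protein, at -0.36 ± 0.18 and COQ10A, a relative of COQ10B, at 0.34 ± 0.20.

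Around the pathway, the citric acid cycle and pyruvate dehydrogenase had 5 negative and 5 positive values of 10, with a median of 0.00, and citrate synthase (CS) was at 0.09 ± 0.18 and the dehydrogenase component DLAT at -0.12 ± 0.18. Glycolysis had 4 negative and 5 positive values of 9, with a median of 0.03, from LDHB at -0.19 ± 0.18 to HK2 at 0.11 ± 0.18. The 6 measured antioxidant genes of mitochondria were all negative, with a median of -0.11, and 10 mitochondrial chaperones and proteases, 8 of them negative, had a median of -0.03. The 3 carrier and VDAC genes had a median of -0.04, and 6 genes of mitochondrial DNA transcription and replication one of -0.08. Of the regulators, NRF1 was at 745 and 852 untreated and 793 and 748 treated (-0.05 ± 0.17), MYC, which drives mitochondrial genes among many others, at 4886 and 4984 untreated and 4637 and 4515 treated (-0.11 ± 0.16), and the nuclear receptor gene ESRRA at 107 and 91.8 untreated and 143 and 94.5 treated (0.20 ± 0.22). Of these 3, MYC alone had groups that did not overlap. All 8 measured regulators together had 5 negative and 3 positive values, with a median of -0.06, and the groups of 4 overlapped. SP1 (-0.22 ± 0.17) and HCFC1 (-0.12 ± 0.16) were also lower on both treated arrays, and the dim ESRRG (0.20 ± 0.16) was higher on both. GABPA, PPARGC1A and TFAM were not analysed here.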

How the data were processed

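The authors deposited a linear intensity for each probe set on each array. Affymetrix Expression Console is named in the submitters' processing notes, while its settings were not given in the sources used here. Precision is limited by the number of arrays. Of 53617 probe sets, 16098 had 1 symbol in the platform annotation and 37519 had none, and the brightest probe set by mean was used for the 779 genes with several, which left 14884 genes. All 30 genes of the set matched RefSeq (GRCh38.p14) by identifier with the same symbol, and this table served for names and neighbours only.

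Values were transformed to log2(intensity + 16) and fitted with limma 3.58.1 (R 4.3.3) as group means over all genes, with Benjamini-Hochberg adjustment over all 14884, 2-sided. The threshold for a call was an adjusted p of 0.05. The procedure was tried on simulated data with independent noise and planted changes larger than any in the set. That trial does not speak to changes of the size seen in the set. Named genes were all members of the set, fixed regulators, and in each other list up to 2 genes per direction by smallest p, of which a part is printed. The members and lists were chosen with earlier results of these data known, so no p is given over a list. Complexes were assigned from textbook knowledge. Alternatives changed the pseudocount, normalization, filter, variance prior, probe sets, pairing and arrays used. Promoter sequences came from the RefSeq table. Figures were drawn with matplotlib 3.10.9.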

Additional observations from a re-analysis of the deposited data

How the results depend on the processing

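Under every alternative run, which changed the pseudocount (1 or 64), the normalization, the low-intensity filter, the variance prior, the probe sets, the pairing or the arrays used, 0 genes of the set were called, and the smallest adjusted limma p in the set ran from 0.550 to 1. The unadjusted limma p was under 0.05 for COX8A with a variance prior that follows intensity, for COX4I2 without untreated replicate 2 and for COX6B2 without CSH71 replicate 2. Over all genes the calls numbered 7 as reported, 143 with that prior, 33 and 0 with pseudocounts of 64 and 1, 27 after median centring or with the replicate block, 11 without the dimmest genes, 0 after quantile normalization or with all probe sets fitted, and 0 to 29 with 1 array left out. With the replicate block the calls in the set numbered 0. Each replicate number holds 1 untreated and 1 treated array, so the block cannot change a fold change. The 26 negative values and the median of -0.09 were therefore fixed and are no check. Deviations of same-numbered arrays correlated at -0.29 over all genes and at 0.05 over the 30 genes of the set. With 2 arrays per group these values cannot show whether the numbers pair the arrays. A crossed pairing was added after seeing the data and gave 0 calls in the set and 0 over all genes. Negative values numbered 21 of 24 without the dimmest 40% of genes, 24 of 30 after median centring and 22 to 26 when 1 array was left out, and the median of the set ran from -0.10 to -0.07. The median of all genes moved from -0.01 to 0.01 with centring. Over subsets that leave out 1 array, the median of complex III ran from -0.10 to 0.03, of complex IV from -0.12 to -0.07 and of complex V from -0.15 to -0.05.

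Signs of single genes turned in 23 of 444 values, none of them called. This is not a rate of turning, because many of the 444 values could not turn. The block, the crossed pairing, the variance priors, the low-intensity filter and the fit of all probe sets leave each fold change as it was. With all 4 arrays kept, COX4I1 and NDUFA6-DT turned to 0.0057 after median centring, and COX6A1 turned to 0.0076 with the mean of its probe sets. All other turns came with 1 array left out. With 1 array left out, the range was -0.55 to 0.011 for COX4I2, -0.30 to 0.026 for COX6A2, -0.81 to 0.079 for COX6B2, -0.47 to 0.29 for COX7A1, -0.045 to 0.080 for COX7A2, -0.46 to 0.19 for COX7B2, -0.42 to 0.038 for COX8A, -0.17 to 0.39 for COX8C and -0.090 to 0.061 for COX4I1. It was -0.10 to 0.028 for UQCRC2, -0.19 to 0.091 for UQCRB, -0.0089 to 0.41 for UQCRH, -0.13 to 0.056 for UQCRHL, -0.013 to 0.29 for NDUFAF7 and -0.31 to 0.28 for NDUFA6-DT. Genes that kept their sign also moved by over 1.5 times with 1 array left out: COX5A from -0.16 to -0.032, COX5B from -0.47 to -0.028, COX6C from -0.26 to -0.056, COX7A2L from -0.10 to -0.015, COX7B from -0.16 to -0.051, COX7C from -0.24 to -0.064, ATP5IF1 from -0.38 to -0.12, ATP5MJ from -0.15 to -0.011, ATP5MK from -0.13 to -0.0029, NDUFAF8 from -0.12 to -0.00071, NDUFB2-AS1 from -0.44 to -0.16 and UQCRBP1 from -0.44 to -0.070. In each, the cause was not tested. The lone array of a reduced group is assumed to vary like the others. No detection call or background level was given.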

Other observations

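Among the 22 protein-coding genes of the set with a RefSeq promoter, the 13 with the SP1 letters GGGCGG, on either strand, all had a negative fold change, with a median of -0.10, while 5 of the 9 without them did, at a median of -0.04. With the ETS letters 3 of 4 were negative (15 of 18 without) and with the ERR letters 2 of 3 (16 of 19 without). With the NRF1 letters 2 of 2 were negative and with the YY1 letters 2 of 2 (16 of 20 without, for each). COX6A1 is counted with the NRF1 and the SP1 letters. Its value is uncertain, since it came from the probe set with chromosome 6 neighbours, and its other, dim probe set gave 0.12. The SP1 comparison was chosen after the values were seen, and none of these comparisons has a test. The SP1 letters also stand in 58.1% of the promoters of all genes measured. The share of negative values among measured genes with and without these letters was not determined, so the split has no baseline. With 1 array left out, COX4I1, COX6B2 and COX8A of the 13 reached 0.061, 0.079 and 0.038. Signs also turned among the 9 without the letters, and every interval in the set included 0. The second probe set under the name NDUFA6-DT lay between 37.9 and 64.1 on the 4 arrays, with a log2 fold change of -0.05.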
